A study of Caenorhabditis elegans with 8 samples.

Results

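The metallothionein genes *mtl-1* and *mtl-2* and the cdr genes *cdr-1* to *cdr-7* were examined in whole *C. elegans* animals lacking zygotic *age-1* and in animals with *age-1* restored to the intestine or to neurons. These genes were taken by symbol, from the name on the array or from the symbol of the sequence name. Of the 9 genes so named, 8 had a probe (1 probe each), among 18877 genes with a probe. They were *mtl-1* (K11G9.6), *mtl-2* (T08G5.10), *cdr-1* (F35E8.11), *cdr-2* (C54D10.1), *cdr-3* (C54D10.2), *cdr-4* (K01D12.11), *cdr-6* (K01D12.12) and *cdr-7* (K01D12.13), all on chromosome V. The symbol *cdr-5* matched no gene name on the array and none in the RefSeq gene table. Whether *cdr-5* is an older name of one of the genes on the array, such as K01D12.14 beside *cdr-4*, is not given in the sources used here, so it was not counted as a member with a probe.

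Metallothioneins are small cysteine-rich proteins that bind metal ions such as cadmium and zinc. In *C. elegans*, *mtl-2* and *mtl-1* are induced by cadmium in the intestine, and *mtl-1*, which is also active in the pharynx without added metal, has long served as a readout of the insulin pathway transcription factor DAF-16. The cdr genes take their name from cadmium response. CDR-1 is an intestinal lysosomal membrane protein strongly induced by cadmium, and the other family members were named for their sequence similarity to it. AGE-1 is the catalytic subunit of a phosphatidylinositol 3-kinase downstream of the insulin receptor DAF-2, and its loss lets DAF-16 enter nuclei.

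The question put to the arrays was which transcripts change when *age-1* is lost and which return when *age-1* acts in a single tissue. The 3 strains set against N2 all carried *sqt-1(sc13)* and *age-1(mg44)*. The *age-1(mg44)* animals (2 arrays) were homozygotes from heterozygous mothers balanced with *mnC1*, and so had maternal but no zygotic *age-1* activity. CY262 (3 arrays) carried in addition the integrated transgene *bvIs1*, which restricts *age-1* expression to the intestine, and CY251 (3 arrays) carried *bvIs2*, which restricts it to neurons. Each of these strains is a single integrated line. The reference was Bristol N2 wildtype, which has neither mutation. Hermaphrodites were synchronised at the L1 stage and grown for 72 h at 20°C on OP50 bacteria to the late L4 or young adult stage.

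On every array the strain was labelled with Cy3 and N2 with Cy5, so a dye bias of a probe and a difference from N2 cannot be told apart. Such a bias is shared by all strains and cancels between them. N2 was hybridised only as this common channel, and its variation between arrays enters the tests only as part of the spread of the ratios. The methods call the replicates of a strain biological, and the p values measure the spread between these arrays. In each channel between 86.1% and 92.8% of 21482 spots were well above background. The *age-1* probe read below N2 in all 3 strains (log2 fold change -1.35 in *age-1(mg44)* animals, -1.47 in CY262 and -1.45 in CY251), so it did not show the restored expression. The records disagree on which strain 4 of the arrays held. The files of the arrays recorded as replicate 2 of CY262 and of CY251 carry each other's strain name, and the series' table of values also places both replicate 3 arrays under the other strain. Values are given as recorded unless another assignment is named. The *age-1(mg44)* arrays stand under 1 strain in all records, and so do the CY262 and CY251 arrays as a set of 6, although the spread within strains, and with it any test, changes with the assignment.

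With the arrays as recorded and no replicate block, part of the cdr family was higher in *age-1(mg44)* than in N2, and neither metallothionein passed the test. In *age-1(mg44)*, *cdr-2* and *cdr-4* stood 15.1-fold and 10.4-fold above N2, *cdr-6* and *cdr-3* were raised less, and *mtl-1*, *mtl-2*, *cdr-1* and *cdr-7* did not pass the test. By limma with Benjamini-Hochberg adjustment over all genes (threshold 0.05), 4 of 8 members were higher than N2 in *age-1(mg44)*, against 11.7% of all genes. In CY262 3 of 8 were higher, against 18.2% of all genes, and in CY251 2 of 8, against 18.3%. No member was called lower in any strain. The median log2 fold change of the 8 members was 1.11 in *age-1(mg44)* animals, 0.42 in CY262 and 0.57 in CY251, with the median of all genes at -0.01 in each strain. These 3 comparisons share their N2 reference and the estimate of the spread. In RNA of whole animals, fewer cells of a type and less RNA per cell cannot be told apart.

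**Figure D1:**
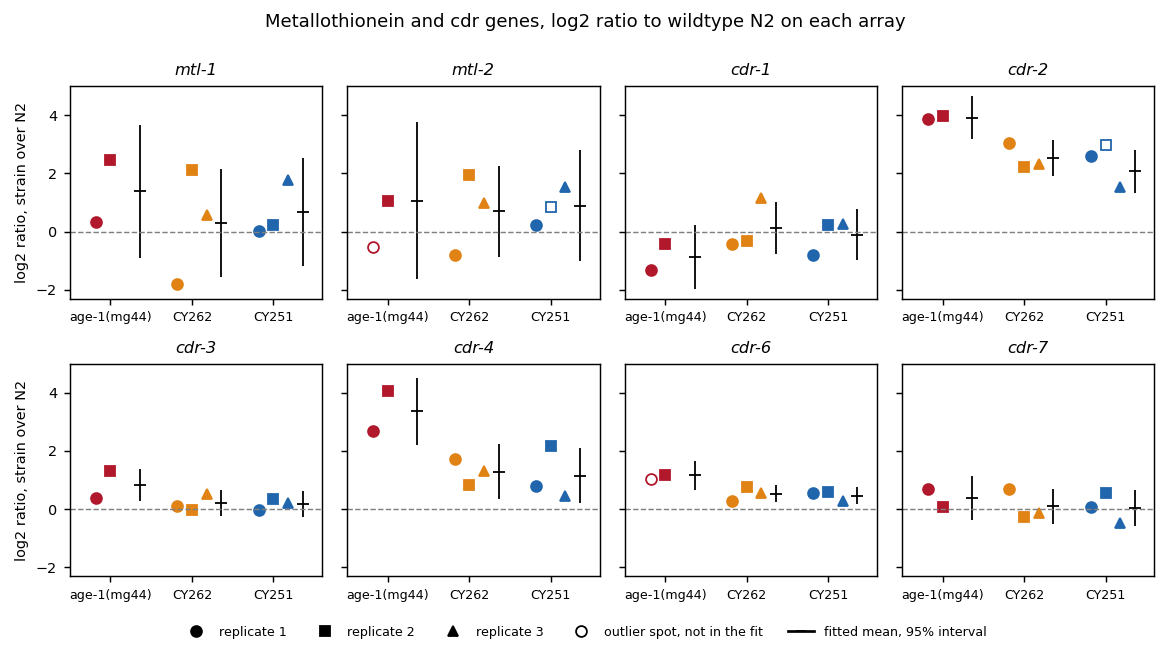
Log2 ratio of each strain to N2 on each array for the 8 members (points, one per array; open points are spots the software marked as outliers, left out of the fit; black marks are fitted means with 95% intervals). The *cdr-2* points lie at 1.53 or above on all 8 arrays and highest in *age-1(mg44)*, while the *mtl-1* points of CY262 spread between -1.81 and 2.13.

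The *mtl-1* ratio varied within each strain by more than the strain means differed. The log2 ratio of *mtl-1* to N2 was 0.33 and 2.45 in *age-1(mg44)* animals, -1.81, 2.13 and 0.58 in CY262, and 0.02, 0.23 and 1.77 in CY251. Each strain thus held a high array and a low array, and the ranges of the 3 strains overlapped. The fitted log2 fold change was 1.39 (SE 0.95, n = 2, limma adjusted p = 0.347) in *age-1(mg44)* animals, 0.30 (adjusted p = 0.787) in CY262 and 0.68 (adjusted p = 0.552) in CY251.

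For *mtl-2*, the second metallothionein, the spot was marked as an outlier on replicate 1 of *age-1(mg44)* and on replicate 2 of CY251, and these were left out of the fit. The value in *age-1(mg44)* thus comes from 1 array, which the fit takes to vary like those of the other strains. The remaining log2 ratios were 1.06 in *age-1(mg44)* animals, -0.81, 1.94 and 0.97 in CY262, and 0.23 and 1.55 in CY251. The *age-1(mg44)* array lay inside the range of both other strains. It was replicate 2, whereas the arrays of CY262 and CY251 included replicate 1. There N2 was brighter for *mtl-2*, at 12963 to 19619 against 5327 to 6960 on the other arrays. The fitted values of the 3 strains thus rest on different replicate numbers, and those with a replicate block, given at the end, differ. The fitted values were 1.06, 0.70 and 0.89 in *age-1(mg44)*, CY262 and CY251, with adjusted p values of 0.521, 0.409 and 0.414 from limma. With the outlier spots kept, the value in *age-1(mg44)* was 0.26 (adjusted p = 0.818), since its replicate 1 spot read -0.53. The 2 genes followed each other across arrays, with a Pearson correlation of 0.92 between their log2 ratios over the 6 arrays that measured both (0.84 over 8 with the outlier spots), and both genes were read on the same N2 RNA of each array.

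Part of this spread lay in the wildtype channel. The intensities given here and below, and the counts of overlap between arrays, include spots marked as outliers. On the 3 replicate 1 arrays the N2 intensity of *mtl-1*, after normalisation within and between arrays, was 7101 beside *age-1(mg44)*, 5409 beside CY262 and 6090 beside CY251. On the other 5 arrays it was between 1353 and 1857. The replicate 1 arrays thus stood 3.78-fold above the rest without overlap. For *mtl-2*, N2 was between 12963 and 19619 on the replicate 1 arrays and between 5327 and 6960 on the others, a 2.7-fold difference, also without overlap. N2 was brighter on the replicate 1 arrays for *cdr-1* too, at 599 to 780 against 277 to 408 on the others, and dimmer for *cdr-2*, at 404 to 469 against 545 to 1017.

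In all, 6 of 8 members had N2 intensities on the replicate 1 arrays that did not overlap those of the other 5 (*mtl-1*, *mtl-2*, *cdr-1* and *cdr-3* higher, *cdr-2* and *cdr-7* lower), against 39.1% of all genes. On the 2 replicate 3 arrays, 5 of 8 stood apart from the other 6 arrays (*cdr-2*, *cdr-4*, *cdr-6* and *cdr-7* higher, *cdr-1* lower), against 17.6% of all genes. The SD of the log2 N2 intensity over the 8 arrays was 1.01 for *mtl-1* and 0.77 for *mtl-2*, larger than in 98.9% and 97.3% of genes, and the median gene had 0.18. It was 0.57 for *cdr-1*, 0.48 for *cdr-2*, 0.32 for *cdr-4* and 0.10 for *cdr-3*. The methods state 3 replicates of N2, and which N2 RNA lay on which array is not stated, so the 8 N2 values are not 8 independent wildtype samples.

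**Figure D2:**
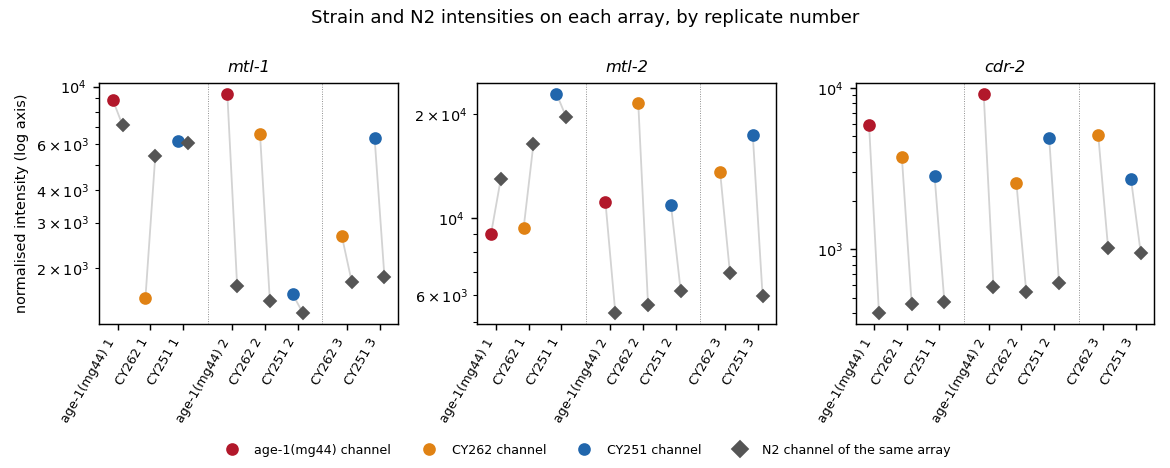
Normalised intensity (log axis) of *mtl-1*, *mtl-2* and *cdr-2* in the strain channel and in the N2 channel of each array, by replicate number. The N2 intensity of *mtl-1* lies between 5409 and 7101 on the replicate 1 arrays and between 1353 and 1857 on the others, and the *cdr-2* strain intensity lies above its N2 intensity on all 8 arrays.

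Read in the strain channel alone, *mtl-1* was at 8909 and 9400.1 in *age-1(mg44)*, at 1545, 6554 and 2659 in CY262, and at 6183, 1591 and 6333 in CY251. Both *age-1(mg44)* arrays were above all 6 arrays of the restored strains, a separation that the ratio to N2 did not show. In this channel 3 of 8 members (*mtl-1*, *cdr-2* and *cdr-4*) had all 6 arrays below both *age-1(mg44)* arrays, against 10.4% of all genes, and none had all 6 above. The strain channel of *mtl-2* was at 8968 and 11102 in *age-1(mg44)*, at 9366, 21585 and 13639 in CY262, and at 22944, 10922 and 17358 in CY251, and these ranges overlapped. A limma fit of the strain channel alone, chosen after the values were seen, gave *mtl-1* a difference of -1.41 between the 6 arrays and *age-1(mg44)* on the log2 scale (adjusted p = 0.37).

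Among the cdr genes, *cdr-2* had the largest fitted log2 fold change in each of the 3 strains. Its log2 ratio to N2 was 3.86 and 3.98 in *age-1(mg44)* animals, 3.03, 2.23 and 2.32 in CY262, and 2.61 and 1.53 in CY251, where the replicate 2 spot (2.98) was marked as an outlier and left out. The lowest *age-1(mg44)* array stood above the highest array of either restored strain, and the CY262 and CY251 ranges overlapped. The fitted log2 fold change was 3.92 (SE 0.30, n = 2, limma adjusted p = 0.00234) in *age-1(mg44)* animals, 2.53 (SE 0.25, n = 3, adjusted p = 0.00213) in CY262 and 2.07 (SE 0.30, n = 2, adjusted p = 0.00532) in CY251. In the strain channel *cdr-2* read 5859 and 9220.1 in *age-1(mg44)* animals, 3747, 2561 and 5085 in CY262, and 2855, 4893 and 2719 in CY251, against N2 intensities of 404 to 1017.

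The next largest rise was that of *cdr-4*. Its log2 ratio was 2.69 and 4.06 in *age-1(mg44)* animals, 1.72, 0.83 and 1.31 in CY262, and 0.80, 2.18 and 0.44 in CY251. Both *age-1(mg44)* arrays were above all others, and the highest array of the restored strains was CY251 replicate 2. The fitted values were 3.37 (SE 0.48, n = 2, limma adjusted p = 0.00744) in *age-1(mg44)* animals, 1.29 (SE 0.39, n = 3, adjusted p = 0.0471) in CY262 and 1.14 (n = 3, adjusted p = 0.0694) in CY251. Leaving out replicate 2 of *age-1(mg44)* ended its call (2.69, adjusted p = 0.1). The call in CY262 was lost without any one of the 3 CY262 arrays or of CY251 replicates 1 and 3 (adjusted p between 0.0537 and 0.17). Both values in the restored strains were smaller by median centring of each array in place of loess, at 0.51 in CY262 (adjusted p = 0.19) and 0.25 in CY251 (adjusted p = 0.499), and without background correction the CY262 value was 0.88 (adjusted p = 0.0825).

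The *cdr-6* probe read 2474 to 4252 in N2. Its log2 ratio was 1.16 on the *age-1(mg44)* array that entered the fit (replicate 1, an outlier spot, read 1.02), 0.28, 0.75 and 0.57 in CY262, and 0.57, 0.58 and 0.26 in CY251. The *age-1(mg44)* array was above the other 6, which overlapped between strains. The fitted values of 1.16, 0.53 and 0.47 passed the test in *age-1(mg44)*, CY262 and CY251 (limma adjusted p = 0.0161, 0.02 and 0.029). The first of these rests on 1 array, taken to vary like those of the other strains, and with the outlier spot kept it was 1.09 (adjusted p = 0.00462). The call in *age-1(mg44)* and the direction in the restored strains rested on the normalisation. Median centring put *cdr-6* at 0.18 in *age-1(mg44)* animals (adjusted p = 0.605), -0.35 in CY262 (adjusted p = 0.105) and -0.47 in CY251 (adjusted p = 0.0422). Of all genes, 66.3% were called in CY251 by median centring. The call in CY262 was also lost without its replicate 2 or 3 (limma adjusted p = 0.0865 and 0.0921). That in CY251 was lost without its replicate 1 or 2 or CY262 replicate 3 (adjusted p = 0.114, 0.137 and 0.0545).

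The *cdr-3* probe gave a weak signal, which in N2 was not well above background on CY262 replicate 2 and CY251 replicate 3. Its log2 ratio was 0.38 and 1.30 in *age-1(mg44)* animals, 0.10, -0.03 and 0.51 in CY262, and -0.02, 0.33 and 0.20 in CY251. The higher *age-1(mg44)* array stood apart from all others and the lower one lay among them. The value in *age-1(mg44)* was 0.84 (SE 0.23, n = 2, limma adjusted p = 0.0471), a call lost without any one array other than *age-1(mg44)* replicate 1 (adjusted p between 0.0538 and 0.422). In CY262 it was 0.19 (adjusted p = 0.451) and in CY251 0.17 (adjusted p = 0.535). Median centring gave 0.58 in CY262 (adjusted p = 0.0195) and 0.60 in CY251 (adjusted p = 0.0155), both calls. It called 62.6% and 66.3% of all genes in these strains. Without background correction the value in *age-1(mg44)* was 0.19 and not called (adjusted p = 0.0766).

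The gene that gave the family its name, *cdr-1*, went with neither *cdr-2* nor *cdr-4*. Its log2 ratio was -1.33 and -0.44 in *age-1(mg44)* animals, -0.42, -0.34 and 1.16 in CY262, and -0.80, 0.22 and 0.27 in CY251. The CY262 arrays lay just above both *age-1(mg44)* arrays, the CY251 arrays overlapped them, and the lowest ratio of each strain was on its replicate 1 array, where N2 was 2.02-fold brighter than on the other arrays. The fitted value was -0.89 (limma adjusted p = 0.221) in *age-1(mg44)* animals, 0.13 in CY262 and -0.10 in CY251. Median centring gave -1.41 in *age-1(mg44)*, which passed the limma test (adjusted p = 0.0279), as did 59.6% of all genes in that strain. The last member, *cdr-7*, was at 0.70 and 0.09 in *age-1(mg44)* animals, 0.70, -0.27 and -0.15 in CY262, and 0.07, 0.54 and -0.48 in CY251, with fitted values of 0.39, 0.09 and 0.05 and overlapping ranges.

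On chromosome V, *cdr-4*, *cdr-7*, *cdr-6*, *cdr-2* and *cdr-3* follow one another in that order in the gene table, with 1 gene that RefSeq names *hrg-2* (K01D12.14), a heme-responsive gene, between *cdr-4* and *cdr-7*. This gene was singled out after its values were seen. Its log2 ratio was 1.195 and 0.83 in *age-1(mg44)* animals, 0.42, 0.17 and 0.33 in CY262, and 0.05, 0.83 and -0.23 in CY251, with a fitted value of 1.01 (SE 0.24, limma adjusted p = 0.0306) in *age-1(mg44)*. The signal of *hrg-2* was weak, at 86 to 115 in N2. Without background correction its fitted value in *age-1(mg44)* was 0.28 (limma adjusted p = 0.0452). Along the row the signs in *age-1(mg44)* were all positive, at 3.37, 1.01, 0.39, 1.16, 3.92 and 0.84 from *cdr-4* to *cdr-3*. The largest values stood near the ends of the row, and 47.7% of all genes were above 0 in this strain. The nearest gene on the *cdr-4* side, K01D12.10, was at -0.03 (adjusted p = 0.839) and the nearest on the *cdr-3* side, C54D10.3, at 0.39 (adjusted p = 0.731). K01D12.9, the next gene beyond K01D12.10, was at 2.90 without passing the test (adjusted p = 0.0709). The remaining measured cdr gene, *cdr-1*, lies elsewhere on the chromosome, 3 genes from *gst-38*, a glutathione S-transferase at 3.59 in *age-1(mg44)* (adjusted p = 0.0148).

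**Figure D3:**
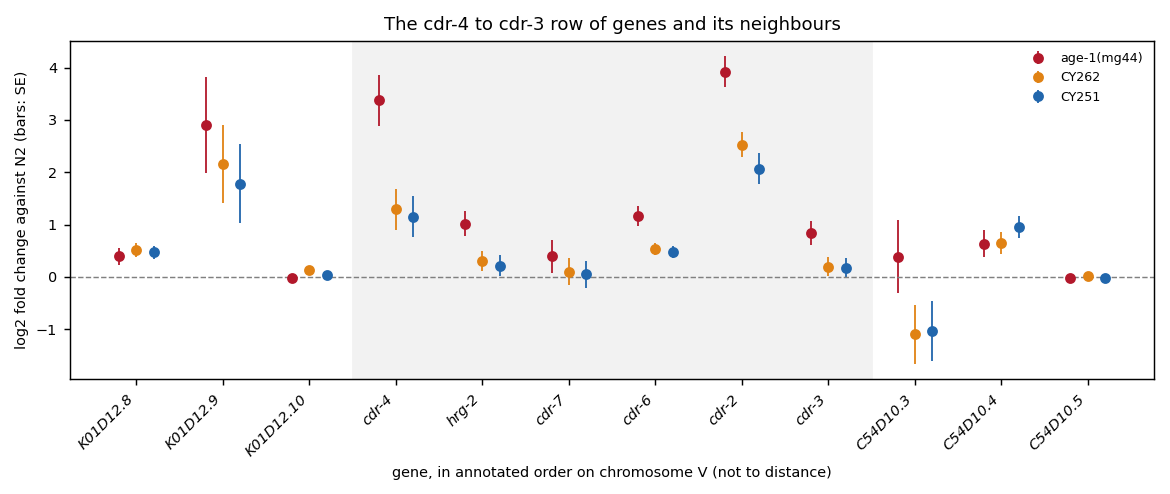
Fitted log2 fold change against N2 (± SE) in each strain for the genes in chromosome order around the row from *cdr-4* to *cdr-3* (shaded). In *age-1(mg44)* the row reaches 3.37 at *cdr-4* and 3.92 at *cdr-2* and falls to 0.39 at *cdr-7*, and K01D12.10 just outside it is at -0.03.

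Set against *age-1(mg44)* itself, 7 of 8 members had a negative log2 fold change on the 6 arrays of CY262 and CY251, and *cdr-1* had a positive one (0.90, adjusted p = 0.711). Over all genes, 53.8% were positive. The values were -2.16 for *cdr-4* (SE 0.56, unadjusted p = 0.00683, limma adjusted p = 0.451), -1.62 for *cdr-2* (SE 0.36, unadjusted p = 0.00474, adjusted p = 0.421) and -0.66 for both *cdr-6* and *cdr-3*. For *mtl-1* the value was -0.90 (95% interval -3.54 to 1.74), for *mtl-2* -0.26 (-3.24 to 2.71) and for *cdr-7* -0.32. The sign for *mtl-2*, which rests on 1 *age-1(mg44)* array, was positive with the outlier spots kept (0.52) and by median centring (0.07), and that for *mtl-1* was positive without *age-1(mg44)* replicate 2 (0.16). The median of the 8 members was -0.66, with all genes at 0.02.

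None of these differences passed limma's adjusted threshold. Called were 0 of 8 members on the 6 arrays together (0.0265% of all genes were), 0 in CY262 (0.0265%), 0 in CY251 (0.0053%) and 0 between CY262 and CY251 (0%). At an unadjusted p under 0.05 there were 4 members on the 6 arrays (*cdr-2*, *cdr-3*, *cdr-4* and *cdr-6*, against 8.15% of all genes), 3 in CY262 (*cdr-2*, *cdr-4* and *cdr-6*, against 6.76%), the same 3 in CY251 (against 6.79%) and 0 between CY262 and CY251 (against 0.784%). The methods' t-test, run on the signals, also called 0 after Benjamini-Hochberg adjustment in these 4 comparisons. Of all genes it called 0.0106% on the 6 arrays and 0% in the others. At its unadjusted p under 0.05 it gave 3, 2, 2 and 0 members in the same order. Since all genes were not counted at this level, these counts cannot be read as an excess.

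Rescue was scored with the unadjusted p of limma, which is not the test the study used for it, and the genes so scored need not be those of the study. A gene at least 2-fold above N2 in *age-1(mg44)* was counted where this p was at least 0.05 against N2 and under 0.05 against *age-1(mg44)*. Of the 8 members, 3 were raised at least 2-fold in *age-1(mg44)* with an unadjusted p under 0.05 (*cdr-2*, *cdr-4* and *cdr-6*), and 0 met both criteria in either strain. Of 1705 such genes in all, 46 did so in CY262, 54 in CY251 and 30 in both. The criterion not met was that against N2, since *cdr-2*, *cdr-4* and *cdr-6* were below *age-1(mg44)* and still above N2 in CY262 and CY251 at an unadjusted p under 0.05. The gene *hrg-2* met both criteria in CY251 only, and its CY262 value against *age-1(mg44)* missed the second (unadjusted p = 0.0573).

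**Figure D4:**
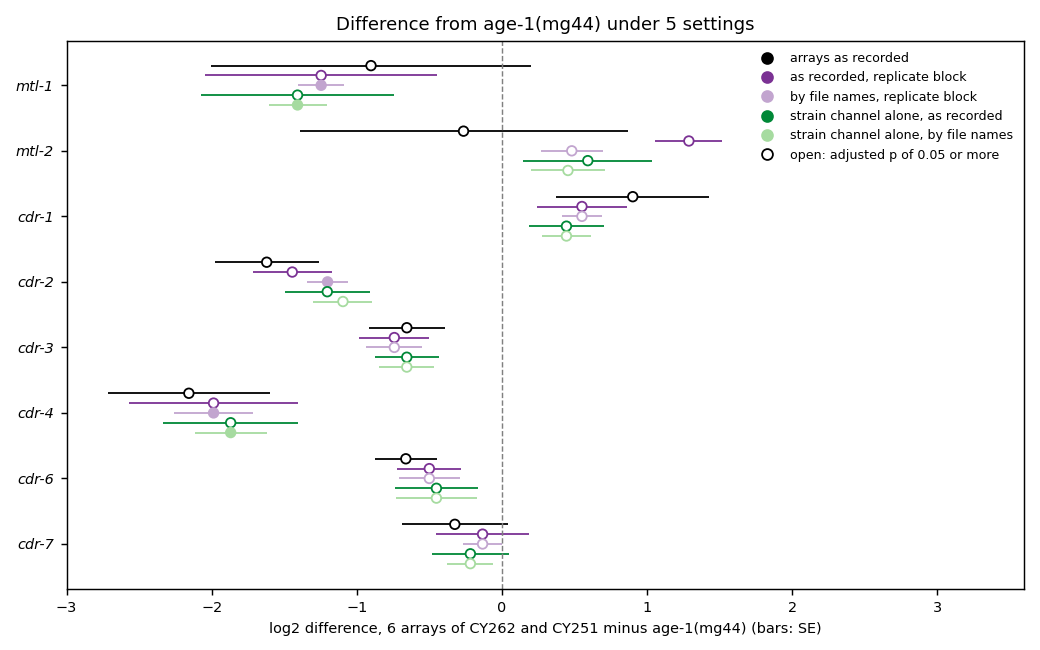
Log2 fold change of the 6 CY262 and CY251 arrays against *age-1(mg44)* for each member under 5 settings (filled points passed an adjusted p of 0.05). The *cdr-4* points lie between -2.16 and -1.87 and the *cdr-2* points between -1.62 and -1.096, filled only under settings that assign the arrays by file name.

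Between CY262 and CY251 as recorded, no difference passed the test. The log2 difference was -0.38 for *mtl-1* (95% interval -3.01 to 2.26), 0.46 for *cdr-2* (-0.51 to 1.43), 0.14 for *cdr-4* (-1.19 to 1.47) and 0.06 for *cdr-6* (-0.34 to 0.46), all with an adjusted p of 1 from limma. In the strain channel, 0 of 8 members had CY262 arrays that did not overlap the CY251 arrays, against 6.24% of all genes. With the arrays assigned as the series' values are tabulated, this held for 0 of 8 as well, against 5.02%.

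By the file names, which exchange both replicate 2 arrays, the strain channel separated the strains in 7 of 8 members, all but *cdr-6*, against 19.3% of all genes. The *mtl-1* intensities became 1545, 1591 and 2659 in CY262 and 6183, 6554 and 6333 in CY251, beside 8909 and 9400.1 in *age-1(mg44)*. Those of *mtl-2* became 9366, 10922 and 13639 in CY262 and 22944, 21585 and 17358 in CY251. Under this assignment every CY262 array was thus below every CY251 array for both metallothioneins. The order was the other way round for *cdr-4*, at 1834, 2128 and 1902 in CY262 and 1117, 786 and 947 in CY251, and also for *cdr-1*, *cdr-2*, *cdr-3* and *cdr-7*. In the ratio to N2 only *cdr-4* separated the strains (1 of 8, against 13.9% of all genes).

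**Figure D5:**
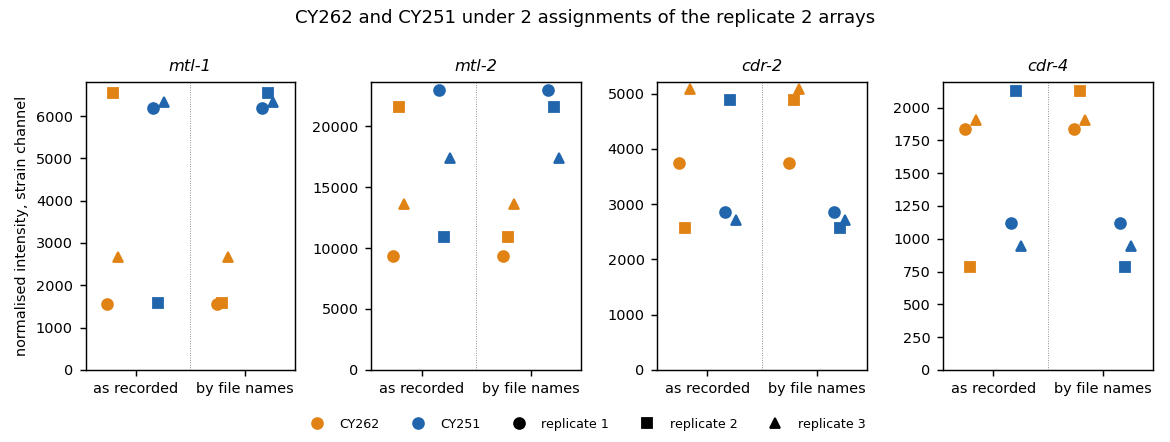
Strain channel intensity (linear axis from 0) of *mtl-1*, *mtl-2*, *cdr-2* and *cdr-4* on the CY262 and CY251 arrays, as recorded and by file names. As recorded the ranges overlap (*mtl-1* at 1545 to 6554 in CY262 and 1591 to 6333 in CY251), and by file names they do not (1545 to 2659 in CY262 and 6183 to 6554 in CY251).

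Tests under this assignment depended on how the N2 channel entered. With the ratio to N2 and no block, limma called 0 of 8 members in each of the 4 comparisons between strains. Of all genes, 0.138% were called over the 6 arrays, 0.0636% in CY262 and 0.323% in CY251 against *age-1(mg44)*, and 0.148% between CY262 and CY251. In the same order, 4, 3, 4 and 1 members had an unadjusted p under 0.05 in limma. All genes were not counted at this level, so no excess among the members can be read from these counts. In a limma fit of the strain channel alone, which was added with the values known, *mtl-1* was lower in CY262 than in CY251 (log2 difference -1.77, SE 0.20, adjusted p = 0.00733, with 1.49% of all genes called) and CY262 was also below *age-1(mg44)* animals (-2.29, adjusted p = 0.0101, with 0.779% called). In the same fit *cdr-4* and *cdr-2* were lower than in *age-1(mg44)* in CY251 (-2.40 and -1.44, adjusted p = 0.0098 and 0.0261, with 4.04% called). Over the 6 arrays, which are the same under any assignment, *mtl-1* was at -1.41 (SE 0.20, adjusted p = 0.022) and *cdr-4* at -1.87 (adjusted p = 0.0203), with 1.87% of all genes called. As recorded, the same values of *mtl-1* and *cdr-4* had an adjusted p of 0.37 and 0.156, and the SE of *mtl-1* was 0.67. Which assignment is right cannot be settled from the records.

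Of a list of 27 other genes for metal handling (transporters, chelators and regulators), 26 were measured. In *age-1(mg44)* 5 of 26 passed the test (4 higher and 1 lower), against 19.7% of all genes. In CY262 4 of 26 did (all higher), against 32.5%, and in CY251 4 of 26 (3 higher and 1 lower), against 31%. The medians of the list were 0.13, 0.02 and 0.02 on the log2 scale. Those called in *age-1(mg44)* were the iron exporter *fpn-1.1* (1.78, limma adjusted p = 0.0288), the divalent metal importer *smf-3* (1.003, adjusted p = 0.0307), the P-glycoprotein *pgp-3* (0.87, adjusted p = 0.0299), the zinc transporter *cdf-2* (0.69, adjusted p = 0.0416) and, lower, the copper ATPase *cua-1* (-0.53, adjusted p = 0.0288). Of these, *fpn-1.1*, *smf-3* and *pgp-3* were also called higher in CY262 and CY251.

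Among 14 genes long used as DAF-16 readouts, 6 were higher in each strain, against 11.7%, 18.2% and 18.3% of all genes. They were not the same 6. In CY262 and CY251 *scl-1* and *fat-5* were called in place of *lys-7* and *dao-3*. The medians of these 14 were 2.34 in *age-1(mg44)* animals, 0.79 in CY262 and 0.57 in CY251. The superoxide dismutase gene *sod-3* was at 4.48, 4.47 and 4.48 in *age-1(mg44)*, CY262 and CY251, and its difference between the 6 restored arrays and *age-1(mg44)* was -0.01 (adjusted p = 0.998), beside -1.62 for *cdr-2* and -2.16 for *cdr-4*. The glutathione S-transferase *gst-10* had values of 2.83, 1.90 and 1.76 and the catalase *ctl-2* 1.66, 1.72 and 1.69, all past the threshold. The lysozyme *lys-7* (4.39, adjusted p = 0.0214) and *dao-3* (1.38, adjusted p = 0.0113) were called in *age-1(mg44)*, and in CY262 and CY251 they had an adjusted p between 0.0556 and 0.099. Of 13 upstream and regulatory genes of the pathway, 5 were lower in *age-1(mg44)*, among them the phosphatase *daf-18* (-1.95, adjusted p = 0.0236), *akt-1* (-0.63, adjusted p = 0.02), the mediator subunit gene *mdt-15* (-0.63, adjusted p = 0.0124) and the heat shock regulator *hsf-1* (-0.79, adjusted p = 0.0153), and the remaining gene was *age-1*. In CY262 5 of the 13 were higher and 4 lower, and in CY251 2 were higher and 5 lower. Of all genes, 8.01% were called lower in *age-1(mg44)* animals, 14.3% in CY262 and 12.7% in CY251. In CY262 and CY251, 18.2% and 18.3% were called higher.

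The markers of several tissues also differed from N2, among 11.7% of all genes called higher in *age-1(mg44)* animals, 18.2% in CY262 and 18.3% in CY251. Of 7 intestinal markers, the tissue in which *mtl-2* and *cdr-1* are known to act, 3 were higher in *age-1(mg44)* animals, 6 in CY262 and 6 in CY251, with medians of 1.15, 1.54 and 1.50. The medians of single arrays were 0.47 and 1.78 in *age-1(mg44)* animals, 1.36, 1.72 and 1.83 in CY262, and 0.63, 1.72 and 1.83 in CY251. Of 6 sperm markers 3, 5 and 5 were higher, and of 6 oocyte and early embryo markers 5, 6 and 5 were lower in *age-1(mg44)*, CY262 and CY251 (against 8.01%, 14.3% and 12.7% of all genes). Of 4 adult hypodermis markers 3, 3 and 2 were higher, of 4 larval hypodermis markers 0, 1 and 2, and of 6 neuronal markers 0, 2 and 2. At an unadjusted p under 0.05 in limma, 0 larval hypodermis and 2 neuronal markers were higher in *age-1(mg44)*, against 19.1% of all genes. Of 5 yolk protein genes limma called 0 in each strain. At an unadjusted p under 0.05 in limma, 3 were lower in *age-1(mg44)* (*vit-2*, *vit-4* and *vit-6*), against 15.7% of all genes. In CY262 and CY251 0 differed at this level, against 45.5% and 42.5% of all genes in either direction. On the 6 arrays the median difference of the intestinal markers from *age-1(mg44)* was 0.37, where *cdr-2* and *cdr-4* had negative values. The part of tissue makeup in the differences of the members from N2 was not tested.

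For each member the genes outside the family with the most similar profile of log2 ratios were found by Pearson correlation among 14614 genes well above background in both channels on all arrays. All arrays share the N2 reference, and the values are the highest among many candidates over few arrays. For *mtl-1* these were *cyp-25A1* (0.993), a cytochrome P450, and T02G5.7 (0.985) over 8 arrays, and for *mtl-2* they were T02C5.1 (0.998) and *hrpf-1* (0.993) over 6. For *cdr-2* they were *wrb-1* (0.980) and F46F11.7 (0.976) over 7 arrays, and for *cdr-4* T26F2.2 (0.979) and *odr-2* (0.975) over 8. The nearest genes were *nhx-2* (0.968) and C18B2.5 (0.964) for *cdr-1*, C28G1.6 (0.974) and K04C2.5 (0.972) for *cdr-3*, and *ttr-43* (0.975) and B0563.1 (0.973) for *cdr-7*, each over 8 arrays. For *cdr-6* they were ZK836.3 (0.985) and *mksr-2* (0.978) over 7. Within the family, *cdr-2* and *cdr-4* had a correlation of 0.92 over 7 arrays and *cdr-3* and *cdr-4* of 0.84 over 8, while *mtl-2* and *cdr-7* had -0.92 over 6.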

How the data were processed

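Total RNA of whole animals was hybridised to 8 Agilent 2-colour oligonucleotide arrays, with the strain in Cy3 and N2 in Cy5. Per the file headers, the authors read the spots with Agilent Feature Extraction A.7.5.1. The deposited intensity values are the mean signal and local background of each spot in both dyes and a processed signal, background-subtracted and dye-normalised. The deposited log10 values are the ratio of red to green, whose sign was turned here. They served only as an alternative.

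Mean signals were corrected with normexp (offset 50) and normalised by loess within each array, using limma 3.58.1 (with statmod 1.5.0) under R 4.3.3. Strain and N2 intensities are those after loess and Aquantile between arrays. Control spots were left out. Spots marked as outliers were left out of the limma fits unless said to be kept. The strain and N2 intensities, the counts of genes whose arrays did not overlap and the methods' t-test include them. The methods' minimum of 100 on the N2 signal removed 0 probes. The brightest of several probes was kept per gene (823 genes), and 582 spots without a sequence name were not used. Symbols came from the array and, for 18124 of 18877 genes, from the RefSeq table of assembly WBcel235. One limma model (lmFit, eBayes) with a mean per strain was fitted to all genes, with Benjamini-Hochberg adjustment and a threshold of 0.05. The fit was also run on simulated data with independent noise on each array. These held no grouping by replicate number or N2 RNA, so they do not test the fit for such grouping. No sequences are shown, since none were among the tables used here.

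All members were named. From the metal-handling, DAF-16 readout and upstream lists, up to 5 genes past the threshold in *age-1(mg44)* were eligible, by size of change. The genes *scl-1* and *fat-5* were named besides, for their calls in CY262 and CY251. Members and lists were chosen with earlier results of these data known. Alternatives changed the background correction, normalisation, outlier spots, probe filter, arrays included, assignment, replicate block and test. Those that combine the file names with a block, use the strain channel alone or leave out both replicate 2 arrays were chosen after seeing the data. The number of arrays limits the precision.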

Additional observations from a re-analysis of the deposited data

How the results depend on the processing

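Over all alternatives, 159 of the counts of called members stayed within 1.5 times the values above and 23 moved. Of the single values, 1291 kept their call and direction, 28 gained a call and 40 lost it. Another 77 changed sign without a call in either fit, and 5 reversed, changing sign with a call in either fit. The rise of *cdr-2* was called in CY262 under all alternatives (1.41 to 2.79), in *age-1(mg44)* under all but the methods' t-test and in CY251 under all but the fit of only the strains compared (limma adjusted p = 0.0617). In *age-1(mg44)*, the count of 4 became 1 with only the strains compared and 0 with the methods' t-test, and leaving out an array gave 1 to 4 (1 without *age-1(mg44)* replicate 2). Of all genes, 4.65% were called in *age-1(mg44)* with only the strains compared and 0% with that t-test. By file names with the replicate block the count there was 6 (5 higher), against 42.8%. It then included *mtl-1*, called higher (limma adjusted p = 0.000946), and *cdr-1*, called lower (adjusted p = 0.0197). In CY262, the count of 3 became 1 without background correction, against 29.5% of all genes, and 1 without both replicate 2 arrays, against 16.5%. It became 6 (5 higher) by file names with the replicate block, against 59%. Leaving out an array gave 1 to 3 (1 without CY262 replicate 2 or 3, against 17.5% and 17.1%). In CY251, the count of 2 became 1 without background correction, against 27.2% of all genes, and 0 with only the strains compared, against 19.1%. It became 1 without both replicate 2 arrays, against 15.9%, and 6 (5 higher) by file names with the block, against 50.9%. Leaving out an array gave 1 to 2 (1 without CY251 replicate 1 or 2 or CY262 replicate 3, against 22.2%, 18.3% and 27.6%). The cause was not tested, apart from the fewer arrays in some of these fits.

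Arrays with the same number did not all deviate together as recorded (r from -0.163 to 0.786 over all genes), so they were not treated as pairs. These r values depend on the disputed strain labels. The N2 channel does not, and in it arrays of one number lay close together. The SD of the log2 N2 intensity of *mtl-1* was 0.20, 0.17 and 0.04 within replicates 1, 2 and 3, against 1.01 over the 8 arrays. The main tests leave this grouping out. With the replicate block as recorded, the counts between strains stayed at 0, and *mtl-2* was called in CY262 (0.70, limma adjusted p = 0.0223) and CY251 (1.51, adjusted p = 0.0105), with -0.18 in *age-1(mg44)* animals (adjusted p = 0.578). Its difference between the 6 arrays and *age-1(mg44)* was then 1.29 (unadjusted p = 0.0155, adjusted p = 0.217). By file names, r lay between 0.385 and 0.85, and with the replicate block the counts were 1 in CY262 against *age-1(mg44)* (*mtl-1*), 2 in CY251 (*cdr-2* and *cdr-4*), 3 over the 6 arrays and 1 between CY262 and CY251 (*mtl-1*). The strain channel by file names gave 1, 2, 2 and 1. The genes called over the table grew alike, to 327, 1167, 736 and 290 with the block and 147, 762, 353 and 282 in the strain channel. Values that reversed were *mtl-1* in CY262 (-0.33, limma adjusted p = 0.043, by file names with the block) and *cdr-6* in CY262 (-0.35 by median centring, -0.28 by the methods' t-test) and CY251 (-0.47 and -0.39). The methods' scaling put the median of all genes at 0.55, 0.44 and 0.48 in *age-1(mg44)*, CY262 and CY251. A filter on spots well above background on all arrays left *cdr-3* without a value, and without *age-1(mg44)* replicate 2 *cdr-6* had none in that strain. A block for the day of feature extraction was not run, since 1 day held a single array (CY262 replicate 2).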
